A study of Mus musculus with 4 samples.

Results

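The 10 genes described here encode the NF-kB transcription factor subunits (Nfkb1, Nfkb2, Rel, Rela and Relb), the IkB proteins Nfkbia, Nfkbib, Nfkbie and Nfkbiz, and the ubiquitin-editing enzyme A20 (Tnfaip3). They were taken by gene name from the deposited table, where each name has 1 row, so the set is 10 of 55401 gene models. The data are RNA-seq values of group 2 innate lymphoid cells (ILC2s), tissue lymphocytes without antigen receptors, purified from the lungs of C57BL/6 mice. The cells were stimulated for 6 h with IL-33 plus angiotensin II (Ang II), a blood pressure hormone, in 2 libraries, and with IL-33 alone in 2 libraries, so all libraries carry IL-33 and none is unstimulated. Each library was made from 500 cells by amplifying cDNA. The labels do not say whether replicates came from separate mice or cultures, or whether animals were pooled, and the series title names the effect of Ang II on ILC2 responses as its question.

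NF-kB proteins work as dimers of Rel-family subunits. In resting cells the IkB proteins IkB-alpha, IkB-beta and IkB-epsilon hold the dimers in the cytoplasm. The IL-33 receptor ST2 signals through MyD88, IRAK kinases and TRAF6 to the IKK complex, which phosphorylates IkB so that it is degraded and the dimers enter the nucleus. The NF-kB dimers then switch on genes that include their own inhibitors IkB-alpha and A20, which closes a feedback loop. RelB and the p52 product of Nfkb2 form a slower, non-canonical arm, and IkB-zeta, the product of Nfkbiz, acts inside the nucleus as a cofactor and is itself made only after a stimulus.

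Because several of these genes are known targets of NF-kB, the bases upstream of their annotated starts were searched for the 10-letter NF-kB consensus on both strands. The RefSeq promoter table (GRCm38.p6, the assembly of mm10) held entries for 7 of the 10 members. At least 1 match in the 250 bases before a start was found for 5 of these 7, against 4.46% of the 27025 genes in the table (3.90% of its 32851 windows of the same length). The genes were chosen as a pathway that includes known NF-kB targets, so the share with a match is no independent finding. The matching stretches are printed 5′ to 3′ in the direction of the gene, with the match in capitals. Positions count back from the annotated start, overlapping matches were joined, and starts are numbered along the gene where a gene has several.
Nfkb2, position -39, chr19:46304688-46304717, plus strand: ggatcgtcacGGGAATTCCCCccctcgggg
Nfkb2, position -11, chr19:46304716-46304745, plus strand: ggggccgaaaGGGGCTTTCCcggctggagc
Nfkb2, start 2, position -236, chr19:46305449-46305478, plus strand: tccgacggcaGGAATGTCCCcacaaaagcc
Nfkb2, start 3, position -225, chr19:46305695-46305724, plus strand: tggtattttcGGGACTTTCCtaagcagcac
Rel, position -92, chr11:23771042-23771071, minus strand: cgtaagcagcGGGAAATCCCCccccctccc
Nfkbia, position -29, chr12:55492657-55492686, minus strand: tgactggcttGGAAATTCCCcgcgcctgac
Nfkbie, position -106, chr17:45555584-45555613, plus strand: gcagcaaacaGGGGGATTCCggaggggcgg
Tnfaip3, position -125, chr10:19015516-19015545, minus strand: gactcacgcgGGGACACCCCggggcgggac
Tnfaip3, position -12, chr10:19015403-19015432, minus strand: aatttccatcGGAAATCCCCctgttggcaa

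The window of Rela held no match, nor did that of Nfkbib. Parts of the windows of Nfkb2, Tnfaip3 and Rela lie in exons of the same genes in GENCODE M21, where some transcripts start further upstream. Of the window of Rel, which has 1 transcript there, only the last base lies in an exon of Rel, and its match lies outside. The whole upstream stretch is shown for Nfkbia, the most abundant member, because it lies outside every annotated exon.
Nfkbia, positions -250 to -1, chr12:55492648-55492897, minus strand: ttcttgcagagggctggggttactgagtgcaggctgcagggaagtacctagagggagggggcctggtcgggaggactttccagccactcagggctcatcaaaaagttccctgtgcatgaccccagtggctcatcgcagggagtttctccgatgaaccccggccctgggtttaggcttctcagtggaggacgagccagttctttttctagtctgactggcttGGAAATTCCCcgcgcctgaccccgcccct
A match is a description of letters in the window, not evidence of a site that is used in ILC2s.

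**Figure D1:**
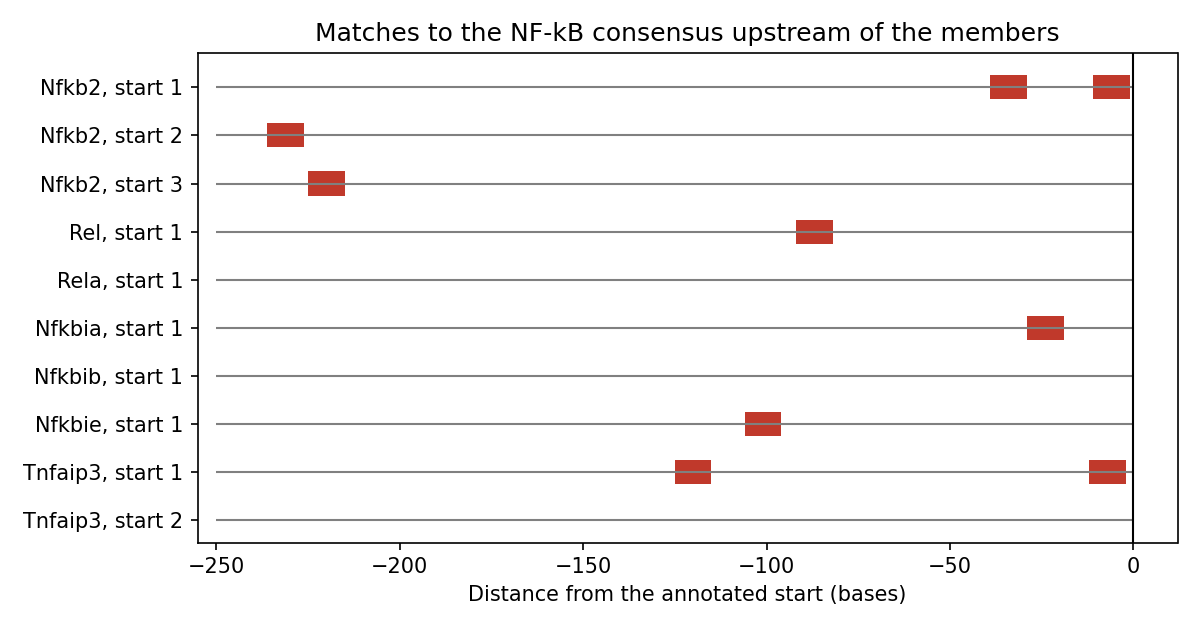
Position of NF-kB consensus matches (red boxes, 10 bases each, drawn from the first base of each joined match) in the 250 bases before each annotated start of the 7 members with a RefSeq entry, with distance from the start in bases on the x axis. Matches stand upstream of Nfkb2, Rel, Nfkbia, Nfkbie and Tnfaip3, and none upstream of Rela, Nfkbib or start 2 of Tnfaip3.

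The libraries were compared with each other first. All values are FPKM, which scale fragments to transcript length and to mapped fragments, and the files used hold no counts. The 2 Ang II libraries differed by a median of 1.63-fold among genes averaging at least 20 FPKM, and the 2 IL-33 libraries by 1.03-fold. The correlation of log2(FPKM + 1) over the 9215 genes tested was r = 0.568 within the Ang II pair and 0.994 within the IL-33 pair. Between an Ang II and an IL-33 library it was 0.555 to 0.567. By this measure the Ang II libraries were about as unlike each other as they were unlike the IL-33 libraries. Against the counting noise of a depth estimated from how often low genes were missed in the IL-33 pair, the spread was 15.2 to 17.6 times the noise for the Ang II pair and 0.979 to 1.38 times for the IL-33 pair, depending on the transcript length assumed. For this reason the IL-33 pair entered the tests as its mean, with n = 1, and tests rest on 2 Ang II samples against 1 IL-33 sample. The labels list the pair as 2 samples, and the values do not show whether they are separate libraries or 1 library sequenced again, so a gene outside both IL-33 values may lie outside a single sample. Of 17 ILC2 genes listed, 16 were tested, of which 4 lay above and 3 below both IL-33 values in each Ang II sample. Among all 9215 genes tested, 24.4% lay above and 33.5% below, and the counts of the lists in this paragraph stand beside these shares. Gata3, Rora and Il1rl1 had at least 43.5 FPKM in every library and Thy1 no more than 0.09 FPKM, while Tcf7 stood at 0.04 and 0.11 FPKM with Ang II, against 6.46 and 6.23 FPKM with IL-33 alone. Of 11 tested T cell markers, 10 lay below and 0 above both IL-33 values in each Ang II sample, with a summed level of 1074 and 473 FPKM with Ang II and 1399 and 1397 FPKM with IL-33 alone, and Foxp3, Cd8a and Cd8b1 at or below 0.17 FPKM throughout. Red blood cell and platelet markers summed to 3845 and 1601 FPKM with Ang II and to 25157 and 24955 FPKM with IL-33 alone, with 5 of 8 lower. Epithelial markers (4 of 5 lower) summed to 80.1 and 194 FPKM with Ang II and to 371 and 361 FPKM with IL-33 alone, and those of neutrophils, mast cells and basophils (3 of 3 lower) to 62.5 and 39.0 FPKM with Ang II and to 209 and 202 FPKM with IL-33 alone. Of 10 macrophage, monocyte and dendritic cell markers, 4 lay higher and 5 lower, with sums of 2065 and 1021 FPKM with Ang II and of 2314 and 2280 FPKM with IL-33 alone. Markers of NK cells and ILC1s (2 of 4 lower) summed to 0.09 and 54.6 FPKM with Ang II and to 69.0 and 68.5 FPKM with IL-33 alone. The tested markers of B cells and of endothelial and stromal cells, 2 of each, overlapped between groups. The part of these lists in the results that follow was not tested.

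Across the family, no member passed the test, and the members differed in direction. Nfkbiz, Rel, Nfkb2, Tnfaip3 and Nfkbia lay higher in both Ang II libraries than in both IL-33 libraries, 5 of 10 members against 24.4% of the 9215 genes tested. Rela and Relb lay lower in both, 2 of 10 against 33.5% of genes tested. Nfkb1, Nfkbib and Nfkbie overlapped between groups. By limma with Benjamini-Hochberg adjustment, 0% of genes tested passed an adjusted p of 0.05 in either direction, and the members' count was 0. At an unadjusted p under 0.05 stood 1 member, Nfkbiz, among the higher (2.79% of genes tested) and none among the lower (10.8%). An exact permutation test of 2 libraries against 2 cannot go below p = 0.333. All 10 members passed the filter of a mean of 1 FPKM, Nfkbiz solely through its Ang II values.

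**Figure D2:**
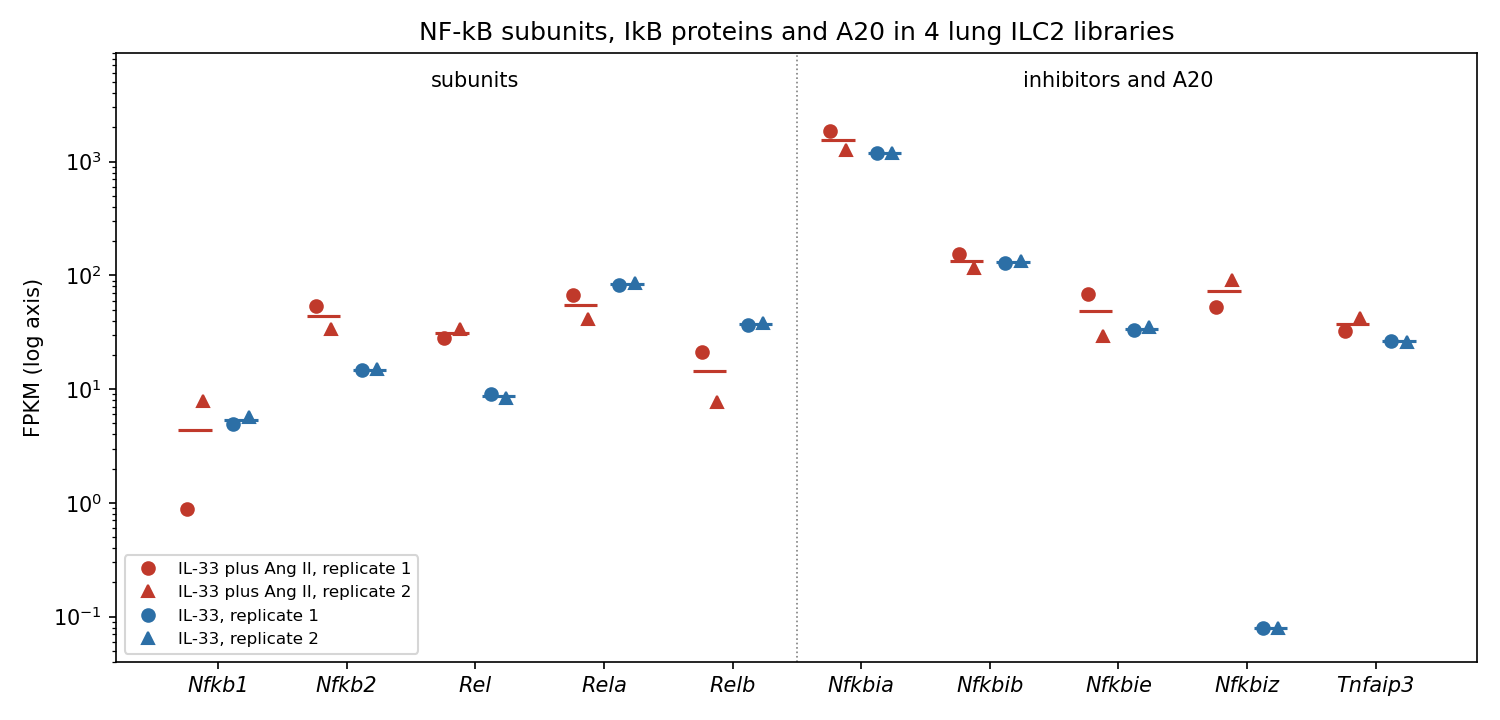
FPKM (log axis) of each member in every library, with IL-33 plus Ang II in red left of IL-33 in blue, circles for replicate 1, triangles for replicate 2 and a line at each group's mean. The largest gap between groups is that of Nfkbiz, with 52.8 and 91.5 FPKM for Ang II and 0.08 FPKM for each IL-33 library, and Nfkb1 shows the widest gap within the Ang II pair.

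Rel encodes c-Rel, a subunit with a transactivation domain that is prominent in lymphocytes. Rel (chromosome 11, 23736847 to 23770970, minus strand of mm10) stood at 27.9 and 34.0 FPKM with Ang II, against 9.04 and 8.31 FPKM with IL-33 alone. The groups were well apart and each pair lay close together, with means of 30.9 ± 4.34 FPKM with Ang II (SD, n = 2) and 8.68 FPKM with IL-33 alone (n = 1 after averaging), a ratio of 3.57. On the log2(FPKM + 1) scale, on which all fold changes here are given, the change was 1.72 (SE 0.43, limma adjusted p = 0.429). Among all genes tested, 16.1% had a change at least as high. In bulk samples, fewer cells that express a gene and less RNA per cell cannot be told apart, here and for the other members.

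Nfkb2 encodes the p100 precursor, which serves as an inhibitor until it is processed to the p52 subunit. Nfkb2 (chromosome 19, 46304320 to 46312385, plus strand) stood at 53.9 and 33.6 FPKM with Ang II, against 14.8 and 14.9 FPKM with IL-33 alone. Both Ang II values were higher, by 3.63 and 2.26 times the IL-33 mean, and they differed from each other by 1.60-fold. The log2 fold change was 1.46 (SE 0.55, limma adjusted p = 0.601). A noncoding gene on the opposite strand, AC114539.1, overlaps Nfkb2 at its 5′ end. Its own level was 17.2 and 35.0 FPKM with Ang II, against 5.57 and 7.58 FPKM with IL-33 alone. Whether counting used strand is not given in the sources used here, so reads of this pair cannot be told apart where they overlap.

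Rela encodes p65, the main activating subunit of the canonical arm. Rela (chromosome 19, 5637483 to 5648130, plus strand) stood at 67.4 and 41.3 FPKM with Ang II, against 82.8 and 86.5 FPKM with IL-33 alone. Both Ang II values were the lower ones, but they lay 1.63-fold apart (log2 fold change -0.67, SE 0.52, limma adjusted p = 0.775).

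Relb encodes RelB, the usual partner of p52. Relb (chromosome 7, 19606217 to 19629438, minus strand) stood at 21.3 and 7.64 FPKM with Ang II, against 36.3 and 38.0 FPKM with IL-33 alone. The groups did not overlap, and the Ang II libraries differed from each other by 2.79-fold (log2 fold change -1.46, SE 0.97, limma adjusted p = 0.775). Among all genes tested, 25.01% had a change at least as low. Thus Nfkb2 and Relb, whose products pair in the non-canonical arm, lay on opposite sides of their IL-33 values.

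Nfkb1 encodes p105, the precursor of the p50 subunit, and had the lowest level of the subunits with IL-33 alone. Nfkb1 (chromosome 3, 135584655 to 135691547, minus strand) stood at 0.88 and 7.81 FPKM with Ang II, against 4.96 and 5.72 FPKM with IL-33 alone. The Ang II libraries lay on either side of the IL-33 values and 8.88-fold apart, so no direction can be read (log2 fold change -0.64, SE 1.57, limma adjusted p = 0.867). Of the 10 members, 3 (Nfkb1, Relb and Nfkbie) differed over 2-fold between the Ang II libraries. The share was 56.6% among the 5508 tested genes with at least 5 FPKM on average in that pair. Nfkb1, at a mean of 4.35 FPKM in that pair, is not among those genes.

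FPKM are per length, and the levels of the subunits are set against each other within a library here. Differences between genes in how their cDNA was amplified were not measured, so ratios between genes are those of listed values. Rela made up 39.3% and 33.2% of the summed subunit FPKM with Ang II and 56.0% and 56.4% with IL-33 alone. Rel made up 16.3% and 27.4% with Ang II and 6.11% and 5.42% with IL-33 alone. The listed level of Rela exceeded that of Rel by 2.42-fold and 1.21-fold with Ang II, against 9.16-fold and 10.4-fold with IL-33 alone. The summed level overlapped between groups, at 171 and 124 FPKM with Ang II and 148 and 153 FPKM with IL-33 alone. The make-up of the family therefore differed more than its total. The share of Nfkb2 was 31.4% and 27.0% with Ang II, against 10.0% and 9.70% with IL-33 alone. The share of Relb was 12.5% and 6.15% with Ang II, against 24.6% and 24.8% with IL-33 alone. These shares describe the libraries and were not tested.

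**Figure D3:**
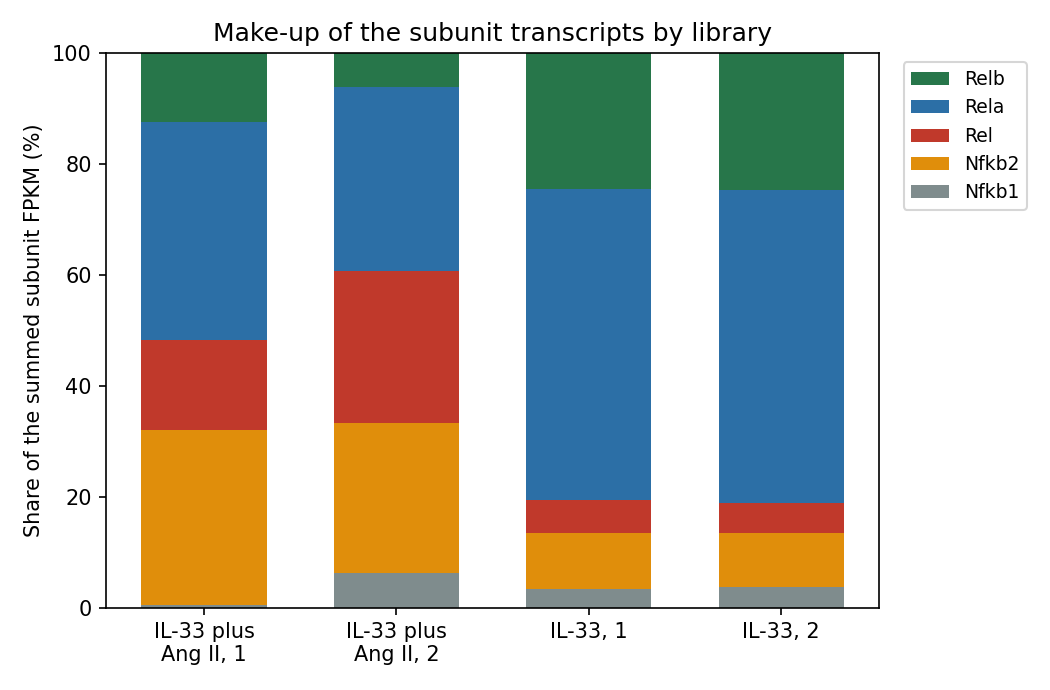
Share of the summed subunit FPKM (%, y axis) taken by each of the 5 subunit genes in each library (bars), with the Ang II libraries on the left. Rel and Nfkb2 take larger parts and Rela and Relb smaller parts of the bars with Ang II, while the share of Nfkb1 is 0.514% and 6.28% with Ang II and 3.35% and 3.73% with IL-33 alone.

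Among the inhibitors, Nfkbia encodes IkB-alpha, the fast-turnover inhibitor that NF-kB itself induces. Nfkbia (chromosome 12, 55489410 to 55492647, minus strand) stood at 1850 and 1264 FPKM with Ang II, against 1190 and 1198 FPKM with IL-33 alone. Ang II replicate 1 exceeded the IL-33 mean by 1.55-fold and replicate 2 by 1.06-fold, so replicate 2 stood close to the IL-33 values. The 2 Ang II libraries differed from each other by 1.46-fold (log2 fold change 0.36, SE 0.37, limma adjusted p = 0.775). Nfkbia was the most abundant member in each of the 4 libraries. It ranked 21 and 36 among all gene models with Ang II and 38 in both IL-33 libraries.

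Nfkbib, which encodes the slower-cycling inhibitor IkB-beta, was the second most abundant member in every library. Nfkbib (chromosome 7, 28758251 to 28767512, minus strand) stood at 153 and 115 FPKM with Ang II, against 129 and 133 FPKM with IL-33 alone. The Ang II values enclosed the IL-33 values (log2 fold change 0.02, SE 0.33, limma adjusted p = 0.981, and -0.049 after quantile normalization). It shares bases with Sirt2 on the opposite strand, which stood at 14.1 and 7.03 FPKM with Ang II and at 22.7 and 20.6 FPKM with IL-33 alone.

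Nfkbie encodes IkB-epsilon, an inhibitor that is also induced by NF-kB. Nfkbie (chromosome 17, 45555703 to 45563169, plus strand) stood at 68.1 and 29.5 FPKM with Ang II, against 33.2 and 34.9 FPKM with IL-33 alone. Ang II replicate 1 was above and replicate 2 below the IL-33 values (log2 fold change 0.39, SE 0.82, limma adjusted p = 0.849). Taken as a sum, the 3 cytoplasmic inhibitors exceeded the 5 subunits by 12.1-fold and 11.3-fold with Ang II and by 9.14-fold and 8.90-fold with IL-33 alone. Nfkbia made up 87.7% to 89.7% of that inhibitor sum in every library.

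Tnfaip3 encodes A20, which edits ubiquitin chains on TRAF6 and other signalling proteins and so dampens the path to IKK. Tnfaip3 (chromosome 10, 19000910 to 19015657, minus strand) stood at 32.7 and 42.4 FPKM with Ang II, against 26.6 and 26.2 FPKM with IL-33 alone. Both Ang II values were higher, by 1.24 and 1.61 times the IL-33 mean (log2 fold change 0.48, SE 0.40, limma adjusted p = 0.775).

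Nfkbiz encodes IkB-zeta, a nuclear cofactor that in mouse cells is needed for a set of secondary NF-kB targets. Nfkbiz (chromosome 16, 55811375 to 55838899, minus strand) stood at 52.8 and 91.5 FPKM with Ang II, against 0.08 FPKM in each IL-33 library. It was thus the lowest member with IL-33 alone and, with Ang II, stood at 72.2 ± 27.4 FPKM (SD, n = 2), above the mean of each subunit and of A20. In Ang II replicate 1 it lay below Rela, Nfkb2 and Nfkbie. The listed values differed by 659.9-fold and 1144-fold from the IL-33 mean, ratios that depend on a value near the lower end of what the files list. The log2 fold change was 6.03 (SE 0.66, unadjusted p = 0.0157, limma adjusted p = 0.174), and 8.60 with a pseudocount of 0.1. Of all genes tested, 0.0977% had a change at least as high.

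Other genes share this pattern in these libraries. Of the 9215 genes tested, 85 (0.922%) were under 1 FPKM in both IL-33 libraries and at 20 FPKM or more in both Ang II libraries, and 174 (1.89%) showed the opposite. Polr2a, a gene that cells in general use, stood at 0.05 FPKM with Ang II in each library, against 5.64 and 6.37 FPKM with IL-33 alone. A listed value near 0 in an amplified library of 500 cells need not mean absence.

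**Figure D4:**
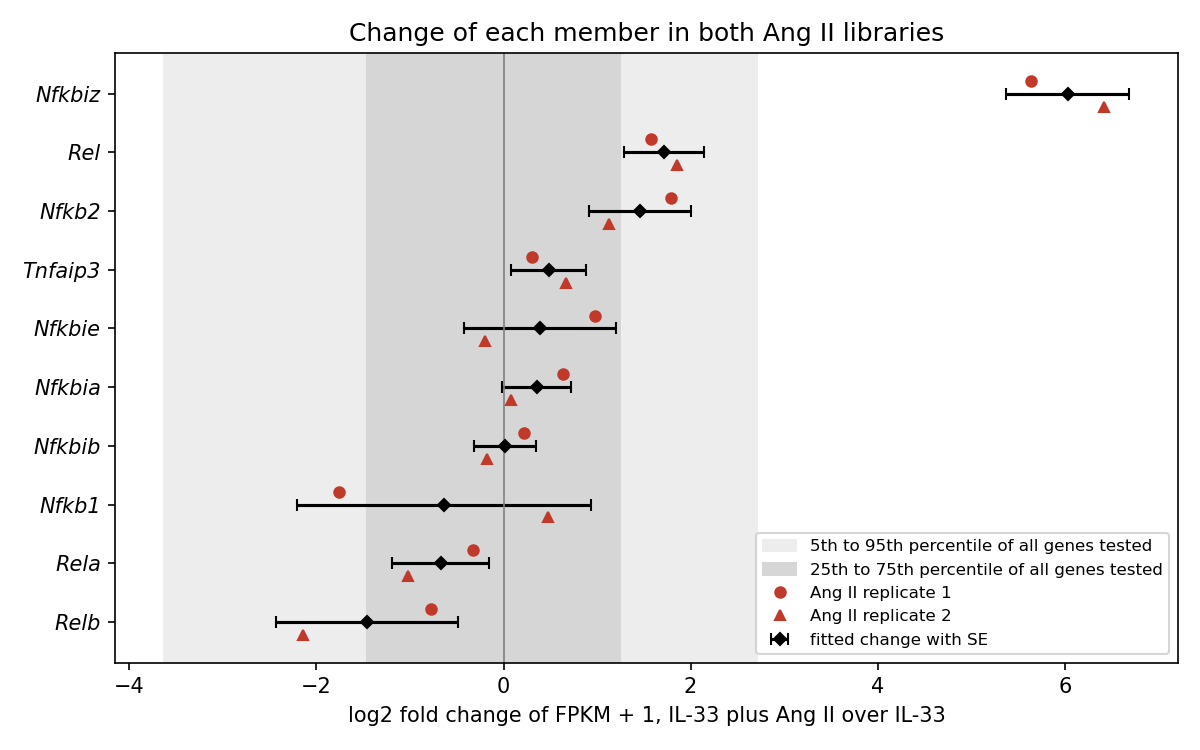
Log2 fold change of FPKM + 1 (x axis) of each member, IL-33 plus Ang II over the IL-33 mean, fitted with its SE (diamonds) and for each Ang II library (red circles and triangles), over the middle ranges of all 9215 genes tested (grey). Only Nfkbiz lies outside the range from the 5th to the 95th percentile (-3.63 to 2.71), and the 2 Ang II libraries fall on opposite sides of 0 for Nfkb1, Nfkbib and Nfkbie.

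In order of level, both IL-33 libraries ran Nfkbia, Nfkbib, Rela, Relb, Nfkbie, Tnfaip3, Nfkb2, Rel, Nfkb1 and Nfkbiz. In the Ang II libraries Nfkbia and Nfkbib also led. Below them the means of Nfkbiz (72.2 ± 27.4 FPKM), Rela (54.3 ± 18.4), Nfkbie (48.8 ± 27.3), Nfkb2 (43.7 ± 14.3), Tnfaip3 (37.6 ± 6.86) and Rel (30.9 ± 4.34) each overlapped with their neighbours within 1 SD (n = 2). Relb (14.5 ± 9.68) and Nfkb1 (4.35 ± 4.90) were last and also overlapped within their spread.

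The genes around the family were described in 8 lists, with 85 tested genes besides the members. Of these, 22 were above and 34 below both IL-33 values in each Ang II sample, beside 24.4% and 33.5% of all genes tested, the shares against which each list's counts stand. The median log2 fold change was -0.31, and 0 passed the adjusted threshold. At an unadjusted p under 0.05, 4 of the 85 were higher and 8 lower, beside 2.79% and 10.8% of all genes tested. Of these, 3 of the higher and 1 of the lower belong to the list of genes that depend on IkB-zeta. That list was made with the high values of Nfkbiz and Areg already known, so the pooled counts are no independent evidence of a direction. All genes tested had a median of 0.00. List medians include genes listed at 0 in a group, whose fitted change depends on the pseudocount. Such genes passed the filter solely through the other group, so they could lie only on that group's side or overlap. Markers of T cells, red blood cells, epithelial cells, neutrophils and NK cells also summed lower with Ang II, as given above. Those of macrophages, monocytes and dendritic cells summed lower too, though single genes lay on both sides. The part of these markers in the values of the 8 lists was not tested.

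Of the 14 genes of the IL-33 receptor and the proteins next to it, 4 did not pass the filter, among them the co-receptor gene Il1rap, at 0.01 FPKM or less in every library. Of the 10 tested, 3 were above and 1 below both IL-33 values in each Ang II sample (median log2 fold change 0.44, with -0.042 for Ang II replicate 1 and 0.56 for replicate 2, and 0.13 with no filter). Il1rl1, the gene of the receptor chain ST2, stood at 43.5 and 78.7 FPKM with Ang II and at 58.5 and 58.4 FPKM with IL-33 alone. Myd88, the adaptor, stood at 72.8 and 137.9 FPKM with Ang II, against 84.0 and 85.1 FPKM. In both of these genes the Ang II values enclosed the IL-33 values. Ube2v1, whose product helps to build the ubiquitin chains that TRAF6 makes, stood at 126 and 156 FPKM with Ang II, against 58.5 and 62.9 FPKM with IL-33 alone (log2 fold change 1.19, SE 0.29, limma adjusted p = 0.421). Peli1, a ubiquitin ligase gene, stood at 18.7 and 19.8 FPKM with Ang II, against 31.6 and 32.2 FPKM with IL-33 alone. Tollip was at 0.12 and 8.53 FPKM with Ang II and at 0.07 and 0.08 FPKM with IL-33 alone.

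The IKK complex phosphorylates IkB, and TAK1 activates IKK. Of 9 tested, 2 were above and 4 below both IL-33 values in each Ang II sample (median -0.78, with -0.23 for Ang II replicate 1 and -0.54 for replicate 2, and 0.19 after quantile normalization). Tbk1 stood at 43.7 and 13.4 FPKM with Ang II, against 50.5 and 52.3 FPKM with IL-33 alone. Map3k7, the gene of the kinase TAK1, stood at 0.05 and 7.26 FPKM with Ang II, against 11.1 and 10.9 FPKM. Ikbkb, the gene of IKK-beta, which phosphorylates IkB, stood at 0.02 and 0.74 FPKM with Ang II, against 2.94 and 3.08 FPKM. The groups did not overlap for these 3 genes, and the Ang II libraries differed from each other in each. Tank stood at 23.2 and 28.1 FPKM with Ang II, against 13.6 and 13.3 FPKM with IL-33 alone. Tab2 was at 36.8 and 0.10 FPKM with Ang II, against 0.56 and 3.14 FPKM, and Ikbkg at 12.3 and 0.20 FPKM with Ang II and listed at 0 in both IL-33 libraries.

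BCL10 and MALT1 act downstream of protein kinase C and link antigen and some G protein-coupled receptors to IKK. Bcl10 stood at 24.3 and 6.86 FPKM with Ang II, against 0.05 FPKM in IL-33 replicate 1 and 0 listed in replicate 2. Prkcd, a protein kinase C gene, stood at 2.12 and 7.68 FPKM with Ang II, against 0.52 and 0.54 FPKM with IL-33 alone. Malt1 was at 0.01 FPKM or less in every library and did not pass the filter. Bcl10 and Prkcd are not all of the tested genes of that list, so no direction can be read for it.

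Of 13 tested genes of linear ubiquitin assembly and ubiquitin editing, some of which act with A20, 5 were above and 5 below both IL-33 values in each Ang II sample (24.4% and 33.5% of all genes tested). The median was -0.46, with 0.029 for Ang II replicate 1 and -0.27 for replicate 2, and turned to 0.36 with no filter on low values. Usp18, whose product removes the ubiquitin-like modifier ISG15 rather than ubiquitin, stood at 469 and 672 FPKM with Ang II, against 195 FPKM in both IL-33 libraries (log2 fold change 1.52, SE 0.37, limma adjusted p = 0.410). Tnip2, which encodes an A20-binding protein, was listed at 0 with Ang II in each library, against 37.1 and 34.3 FPKM with IL-33 alone. Rbck1, a subunit of the linear ubiquitin ligase, stood at 7.98 and 33.99 FPKM with Ang II, against 66.3 and 67.3 FPKM. Tax1bp1, an A20 adaptor, stood at 21.7 and 41.7 FPKM with Ang II, against 50.6 and 50.2 FPKM, and Itch at 9.42 and 0.32 FPKM with Ang II, against 13.3 and 13.6 FPKM.

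The list of the non-canonical arm, in which TNF receptor superfamily members act through TRAF and BIRC proteins on the kinase NIK, lay mostly below its IL-33 values. Of 10 tested genes, 0 were above and 9 below both IL-33 values in each Ang II sample, where 33.5% of all genes tested were lower, and the median log2 fold change was -1.70 (-2.74 for Ang II replicate 1 and -0.76 for replicate 2). None passed the adjusted threshold, and 2 of the 10 were lower at an unadjusted p under 0.05, as were 10.8% of all genes tested. Tnfrsf18, the gene of GITR, stood at 1013 and 1410 FPKM with Ang II, against 2353 and 2342 FPKM with IL-33 alone (log2 fold change -0.97, SE 0.33, limma adjusted p = 0.548). Tnfrsf9, the gene of 4-1BB, stood at 773 and 578 FPKM with Ang II, against 1363 and 1367 FPKM (log2 fold change -1.03, SE 0.30, limma adjusted p = 0.480). Tnfrsf18 and Tnfrsf9 had the highest mean levels of this list. Map3k14, the gene of NIK, stood at 0.62 and 0.86 FPKM with Ang II, against 9.96 and 8.53 FPKM with IL-33 alone. Birc3 stood at 9.51 and 56.6 FPKM with Ang II, against 72.6 and 74.3 FPKM, and Tnfrsf1b at 0.15 and 14.7 FPKM with Ang II, against 57.4 and 59.7 FPKM. Tnfrsf4, the gene of OX40, was listed at 0 with Ang II in each library, against 50.2 and 52.2 FPKM with IL-33 alone. T cells also express these receptors, and T cell markers were lower in the same libraries, as given above. Their part in the values of this list was not tested.

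The RNA of genes for other nuclear IkB proteins was listed in both groups. Nfkbid, the gene of IkB-NS, stood at 59.7 and 194 FPKM with Ang II, against 183 and 194 FPKM with IL-33 alone. Bcl3, whose product joins p50 and p52 dimers, stood at 37.7 and 0.05 FPKM with Ang II, against 61.5 and 62.6 FPKM with IL-33 alone. For neither gene did an Ang II sample exceed both IL-33 values, and the difference from Nfkbiz was not tested. In the whole list of 10 tested modulators, 2 were above and 3 below both IL-33 values in each Ang II sample (24.4% and 33.5% of all genes tested). The median was -0.26, with -0.082 for Ang II replicate 1 and -0.58 for replicate 2 over the same genes. Without Ang II replicate 1 the filter passed a different set of genes, and the median was 0.040. It was 0.11 with no filter and -0.80 at a minimum mean of 5 FPKM, so no direction can be read for the list. Nfkbil1 was listed at 0 with Ang II in each library, against 19.8 and 20.03 FPKM with IL-33 alone. Nkiras2 was at 34.0 and 0.09 FPKM with Ang II, against 29.8 and 31.8 FPKM, and Nkap at 3.66 and 0.02 FPKM with Ang II, against 7.11 and 5.95 FPKM.

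Known NF-kB target genes lay on both sides. Of 31 tested, 5 were above and 14 below both IL-33 values in each Ang II sample, against 24.4% and 33.5% of genes tested (median -0.80, with -0.48 for Ang II replicate 1 and -0.13 for replicate 2). Icam1, an adhesion molecule gene, stood at 26.9 and 49.7 FPKM with Ang II, against 2.36 and 1.82 FPKM with IL-33 alone (log2 fold change 3.61, SE 0.71, limma adjusted p = 0.347). Junb stood at 1208 and 768 FPKM with Ang II, against 703 and 724 FPKM. Csf2, which encodes the growth factor GM-CSF, reached 1819 and 731 FPKM with Ang II, against 913 and 891 FPKM, and so overlapped. Tnf was listed at 0 in Ang II replicate 1 and stood at 27.7 FPKM in replicate 2, against 60.8 and 63.9 FPKM with IL-33 alone. Ccr7 stood at 0.14 and 0.11 FPKM with Ang II, against 78.9 and 83.0 FPKM.

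Genes that depend on IkB-zeta in other mouse cells were listed as well, a list made with the high values of Nfkbiz and Areg already known, so it is no independent evidence of a direction. Of 7 tested, 3 were above and 1 below both IL-33 values in each Ang II sample (24.4% and 33.5% of all genes tested). Of the higher ones, Il17a and Il17f passed the filter solely through their Ang II values, so they could not have come out lower. Areg was known to be high when the list was made. The median was 0.35, with 2.16 without Ang II replicate 1, 1.01 without replicate 2 and 0.045 with no filter. Il17f stood at 48.2 and 30.4 FPKM with Ang II, against 0.06 and 0.07 FPKM with IL-33 alone (log2 fold change 5.21, SE 0.66, limma adjusted p = 0.202). Il17a stood at 37.9 and 16.6 FPKM with Ang II, with 0 listed in each IL-33 library. Areg, the gene of the repair factor amphiregulin, stood at 217 and 344 FPKM with Ang II, against 7.38 and 7.51 FPKM (log2 fold change 5.02, SE 0.49, limma adjusted p = 0.174). Lcn2, the gene of lipocalin 2, which binds iron carriers of bacteria, named after its values were seen, was the lower one, at 1.04 and 0.56 FPKM with Ang II, against 16.7 and 21.2 FPKM with IL-33 alone (log2 fold change -3.48, SE 0.66, limma adjusted p = 0.334). Il17a and Il17f thus stood near 0 with IL-33 alone, as Nfkbiz did, and Lcn2 lay the opposite way, while Csf3 and Il12b of the same list were listed at 0 in all 4 libraries.

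**Figure D5:**
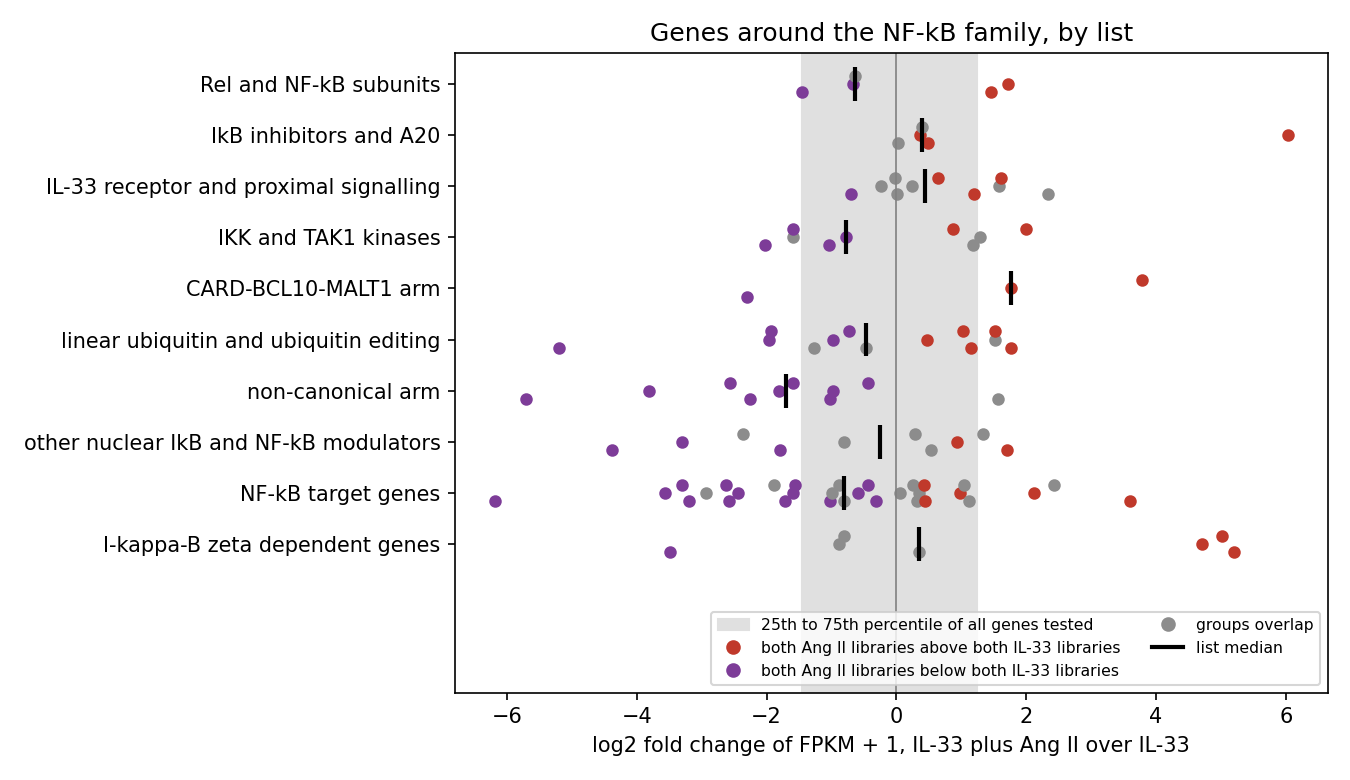
Log2 fold change of FPKM + 1 (x axis), IL-33 plus Ang II over IL-33, of each tested gene in the member groups and the 8 lists around them (rows), coloured by whether both Ang II libraries lie above (red) or below (purple) both IL-33 libraries or overlap (grey), with a black line at each list's median and a grey band from the 25th to the 75th percentile of all genes tested. Points of the non-canonical arm lie mostly left of 0, with a median of -1.70.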

How the data were processed

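The deposited values are FPKM with 2 decimals, given per gene and library, per the file headers. The build and tools named by the submitters' processing notes are mm10, HISAT, StringTie and edgeR (no role or version), and the annotation is not given in the sources used here. The files hold no counts, so no count model was used and the depth per library is unknown. Of 55401 gene identifiers, 55141 were found in GENCODE M21 (GRCm38), which gave coordinates.

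Genes averaging 1 FPKM or more over 3 columns (each Ang II library and the IL-33 mean) were tested on log2(FPKM + 1) with limma 3.58.1 (mean-variance trend, two-sided, Benjamini-Hochberg adjustment over 9215 genes, threshold 0.05, 1 residual degree of freedom). The fit takes the single IL-33 value to be as variable as the Ang II pair, and its p-values measure only the spread between these samples, possibly a technical one. A gene counts as higher, or lower, when each Ang II value exceeds, or falls under, each IL-33 value. The IL-33 pair was averaged because its spread in the range of 1 to 32 (FPKM times kilobases) was close to counting noise. From 32 to 2048 it exceeded the noise, by 22.3 to 28.6 times for the Ang II pair and by 1.33 to 1.56 times for the IL-33 pair.

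All members are named, and from each of the 8 lists up to 3 genes of highest mean and up to 3 of largest change without overlap, except 1 gene that is not reported here. Members and lists were chosen with earlier results of these data known. Promoter sequences come from RefSeq (GRCm38.p6).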

Additional observations from a re-analysis of the deposited data

How the results depend on the processing

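Treating the IL-33 pair as 2 replicates, limma placed 457 genes among the higher and 1090 among the lower past the adjusted threshold, and 2 members, Rel (log2 fold change 1.72, adjusted p = 0.0343) and Nfkbiz (6.03, adjusted p = 0.00791). These calls rest on a spread that for IL-33 is near counting noise. With the replicate block added to that fit, 0 genes were called higher, 0 lower and 0 members. The labels tie no shared source to the replicate numbers, and this pairing was not used. The deviations of same-numbered libraries had r = -0.02 across genes, which says little because those of the IL-33 pair are near counting noise. Without single libraries, members higher in all remaining comparisons numbered 5 to 7 and members lower 2 to 4. With 1 Ang II library left the criterion is looser, with 48.3% or 45.1% of all genes higher and 47.9% or 51.7% lower, without Ang II replicate 1 or 2 in that order. Over all these settings the members' median log2 fold change was 0.28 to 0.47. With a single Ang II library, a value with no test, the log2 fold change ranged from -1.75 to 0.47 for Nfkb1, from -0.18 to 0.22 for Nfkbib and from -0.20 to 0.98 for Nfkbie, turning direction without Ang II replicate 1. Quantile normalization moved the median of all genes to 0.16 and turned Nfkbib (-0.049, adjusted p = 0.948). Under upper quartile scaling, scaling without haemoglobin genes and quantile normalization the same 5 members lay higher and the same 2 lower. A pseudocount of 0.1, no filter and a minimum mean of 5 FPKM cannot change that order. All 6 of these settings left 0 genes past the adjusted threshold. A minimum mean of 5 FPKM left 9 members. The median of the IKK and TAK1 list was 0.19 under quantile normalization. The unknown depth limits every value near 0, among them Nfkbiz with IL-33 alone.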
